A study of Mus musculus with 6 samples.

Results

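Open chromatin around the genes of the activator protein 1 (AP-1) transcription factors was examined in mouse haematopoietic stem cells (HSCs) by ATAC-seq, which marks accessible DNA by the insertion of a transposase. The genes were Jun, Junb, Jund, Fos, Fosb, Fosl1, Fosl2, Batf and Batf3. Peaks on chromosomes 1 to 19, X and Y from 6 libraries were merged where they overlapped by 1 bp or more, and the merged regions inside or within 50 kb of the RefSeq span of any of the 9 genes were kept. This gave 140 of 82993 regions, from 4 at Jund to 23 at Fos and 23 at Fosb, and no region belonged to more than 1 of the genes. Expression was not measured, so every value below describes chromatin.

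All cells were bone marrow HSCs of wild-type C57BL/6J mice, sorted by the phenotype CD48-CD150+LSK, about 5000 for each library. The 3 tunicamycin libraries came from mice that had received 2 mg/kg of the drug into the peritoneal cavity, and the 3 DMSO libraries from mice given the solvent by the same route. Tunicamycin blocks N-linked glycosylation, so that unfolded protein accumulates in the endoplasmic reticulum (ER). The labels give neither the age of the mice, nor the time from injection to sorting, nor whether libraries came from separate or pooled animals, and every p-value therefore speaks to the scatter of these 6 libraries alone, which could be technical.

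Lists held 28501 to 62478 peaks, with DMSO replicate 3 the shortest and DMSO replicate 1 the longest. Depth is unknown from peak lists. A call means that the authors listed a peak there, and where none is listed the chromatin may still be partly open. In libraries of many cells, a peak in a fraction of the cells and a weaker peak in all of them cannot be told apart. For each peak the authors gave a fold enrichment over background and a −log10 q-value. Here a peak's percentile is the percent of peaks in its own library with a lower fold enrichment. Among HSC marker genes, Hlf, Mecom, Procr, Kit and Meis1 held a region called in all 6 libraries in the gene or up to 1 kb from it, while Ly6a, Slamf1 (CD150), Fgd5 and Hoxb5 did not. Of all protein-coding genes 54.4% held such a region. The number was 1 of 6 for neutrophil and monocyte markers (Csf1r), 1 of 5 for erythroid (Klf1), 2 of 5 for lymphoid (Pax5 and Gata3) and 2 of 5 for stromal and endothelial markers (Cdh5 and Pecam1).

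AP-1 factors are basic leucine zipper proteins that bind DNA as dimers. JUN proteins pair with each other or with FOS proteins, and BATF proteins pair with JUN proteins. Fos, Fosb, Jun and Junb are immediate early genes, transcribed within minutes of a stimulus from promoters that are already accessible. The kinase JNK, which the ER stress sensor IRE1 can activate, phosphorylates JUN. JunB restrains the expansion of HSCs and myeloid cells, and BATF and BATF3 are known for roles in lymphocytes and dendritic cells.

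The start sequences show which of these genes had a call at the promoter itself. RefSeq promoter sequences (GRCm38.p6, the assembly that mm10 denotes), from 250 bases before to 50 bases after the start, were held for 8 of the 9 genes, Fosl1 being the exception. Those of Jun, Junb, Fos and Batf lay inside a region called in all 6 libraries, that of Fosb inside a region called in 5, and those of Jund and Fosl2 in no region, while that of Batf3 was partly covered by a region called in 2. Capitals mark the CCAAT box (CCAAT), the TATA sequence (TATAAA) and TGACG, the first letters of the cyclic AMP response element TGACGTCA, searched on both strands.
Jun (chr4:95052173-95052472, minus strand): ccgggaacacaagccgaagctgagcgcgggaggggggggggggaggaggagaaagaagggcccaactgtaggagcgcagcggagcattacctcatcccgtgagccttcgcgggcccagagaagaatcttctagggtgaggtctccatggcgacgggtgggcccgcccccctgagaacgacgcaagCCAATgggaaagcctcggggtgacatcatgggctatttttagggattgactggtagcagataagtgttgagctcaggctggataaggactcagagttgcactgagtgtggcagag
Junb (chr8:84978699-84978998, minus strand): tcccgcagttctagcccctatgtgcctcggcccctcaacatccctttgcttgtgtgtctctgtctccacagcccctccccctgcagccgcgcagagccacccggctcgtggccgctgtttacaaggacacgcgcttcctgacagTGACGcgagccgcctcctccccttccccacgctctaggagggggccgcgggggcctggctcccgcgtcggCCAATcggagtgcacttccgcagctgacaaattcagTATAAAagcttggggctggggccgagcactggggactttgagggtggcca
Fos (chr12:85473640-85473939, plus strand): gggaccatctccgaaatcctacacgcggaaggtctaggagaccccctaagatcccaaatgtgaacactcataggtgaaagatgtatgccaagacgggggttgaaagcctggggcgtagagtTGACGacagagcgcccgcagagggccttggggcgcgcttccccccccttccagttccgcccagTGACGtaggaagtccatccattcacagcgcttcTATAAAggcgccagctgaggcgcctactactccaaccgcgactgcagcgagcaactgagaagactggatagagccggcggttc
Fosb (chr7:19309996-19310295, minus strand): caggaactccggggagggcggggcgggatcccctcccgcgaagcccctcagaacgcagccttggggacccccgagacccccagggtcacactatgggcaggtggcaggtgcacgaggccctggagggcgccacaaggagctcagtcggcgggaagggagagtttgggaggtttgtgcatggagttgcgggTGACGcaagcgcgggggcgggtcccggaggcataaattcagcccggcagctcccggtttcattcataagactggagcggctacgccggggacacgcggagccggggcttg
Batf (chr12:85686470-85686769, plus strand): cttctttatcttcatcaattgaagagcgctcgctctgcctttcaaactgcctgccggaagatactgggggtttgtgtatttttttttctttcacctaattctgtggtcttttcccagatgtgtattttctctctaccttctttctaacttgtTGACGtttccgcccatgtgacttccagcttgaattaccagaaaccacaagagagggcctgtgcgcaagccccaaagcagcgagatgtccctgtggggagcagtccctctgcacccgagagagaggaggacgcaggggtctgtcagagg
Jund (chr8:70697489-70697788, plus strand): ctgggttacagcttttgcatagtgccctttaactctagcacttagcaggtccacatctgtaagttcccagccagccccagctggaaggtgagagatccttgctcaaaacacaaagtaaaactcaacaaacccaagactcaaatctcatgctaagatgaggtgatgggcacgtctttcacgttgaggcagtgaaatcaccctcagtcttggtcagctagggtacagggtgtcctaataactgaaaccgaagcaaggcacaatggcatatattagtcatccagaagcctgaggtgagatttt

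The TGACG letters were found in the promoters of Junb, Fos, Fosb and Batf, with 2 occurrences at Fos, and in 20.8% of 32851 promoters of the same length. That motif was added after the sequences had been seen. TATAAA was found at Fos and Junb (13.6% of all promoters) and CCAAT at Jun and Junb (37.4%). At Fos the TATAAA began 33 bases before the start, and the nearer TGACG 66 bases before it. At Junb the TATAAA began at the annotated start itself and TGACG 106 bases before it, and CCAAT began 36 bases before the start at Junb and 65 at Jun. GGGCGG, the GC box, was found at Jun, Fos, Fosb, Fosl2, Batf and Batf3 (35.7% of all), and CCACG at Junb, Fosl2 and Batf3 (32.8%). The AP-1 site TGACTCA (5.20% of all), the full element TGACGTCA (1.79%), the unfolded protein response element TGACGTGG (0.676%), the amino acid response letters TGATGCAA (0.895%) and the CArG box bound by serum response factor (1.63%) were in none of the 8 windows. Sites outside these windows, and variants of these motifs, were not looked for. TGACG lies within TGACGTCA and TGACGTGG, and CCACG within the reverse complement of TGACGTGG. The Jund window held 3 CpG dinucleotides, where the other 7 held 9 to 34 and the median of all promoters was 7. Its share of G and C, 46.7%, was the lowest of the 8, beside 49.7% at Batf and a median of 52.7% over all promoters.

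**Figure D1:**
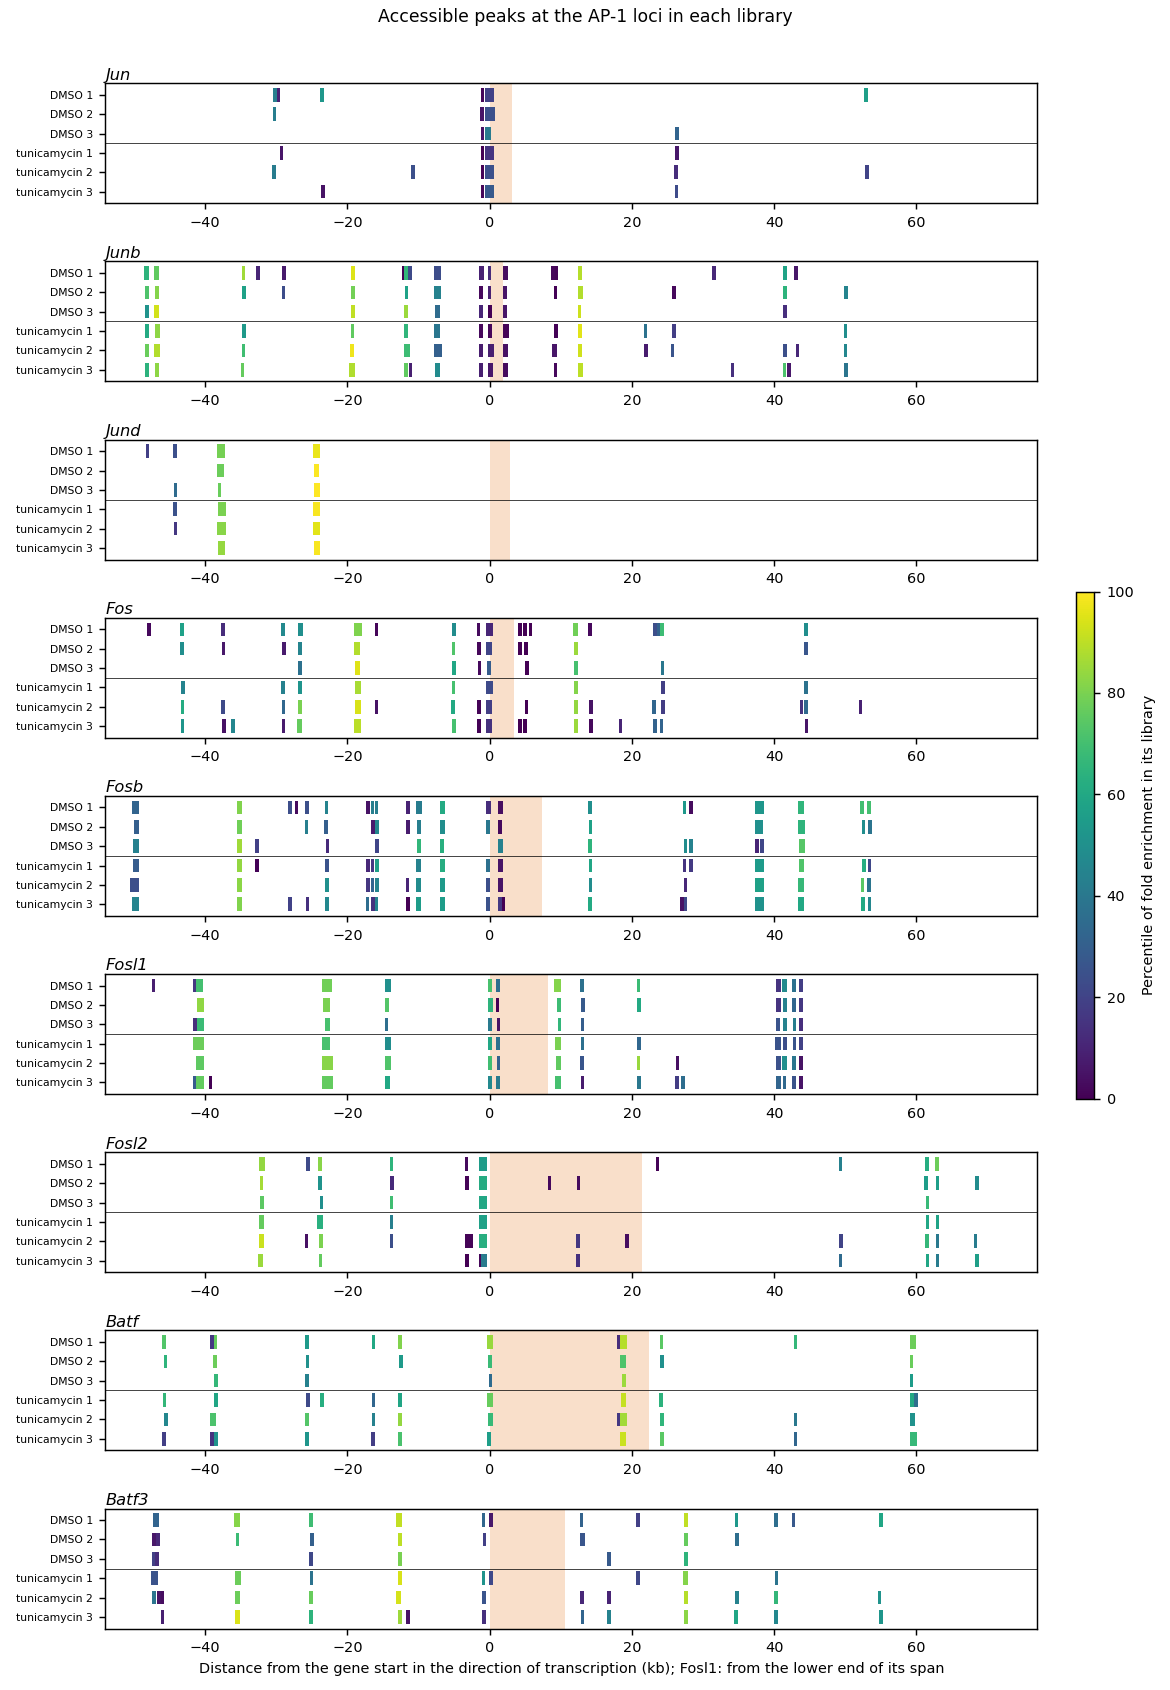
Peaks of each library (rows, 3 DMSO above and 3 tunicamycin below the line) at the 9 loci, by distance in kb from the gene start in the direction of transcription (for Fosl1, from the lower end of its span), with the gene shaded and the colour giving the percentile of fold enrichment. Peaks narrower than 0.5 kb are drawn 0.5 kb wide. Peaks at the starts of Jun, Junb and Fos are dark (low percentiles), and the Jund panel is empty from its last upstream peak onwards.

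At Jun, which encodes c-Jun, 9 regions were found and 2 were called in all 6 libraries. The region over the start (chr4:95051484-95052918, across the 5′ end of the gene, 1435 bp wide) had fold enrichments of 4.35, 4.39 and 4.82 in DMSO replicates 1, 2 and 3 and 3.89, 4.24 and 4.55 in tunicamycin replicates 1, 2 and 3. Its percentiles were 19.5, 24.4 and 41.3 in the DMSO libraries and 15.1, 24.3 and 27.5 in the tunicamycin libraries. The libraries overlapped between the groups. The mean was 28.4 ± 11.4 (SD, n = 3) after DMSO and 22.3 ± 6.45 (SD, n = 3) after tunicamycin, a difference of −6.09 points (two-sided exact permutation test, p = 0.5, adjusted p = 0.974 over the 20810 regions called in all 6). The summit lay within 62 bp of the annotated start in every library. The other constant region (chr4:95053172-95053516), centred 1.14 kb upstream, ranked lower still, at percentiles of 0.383 to 5.44. A region 26.1 kb beyond the start, past the end of the gene (chr4:95025849-95026293), had peaks after tunicamycin in 3 of 3 libraries and after DMSO in replicate 3 alone. The DMSO replicate 3 peak had the highest fold enrichment there, 4.50, against 3.49, 3.74 and 4.32 in tunicamycin replicates 1, 2 and 3. How many of all regions showed this pattern was not counted. The remaining 6 regions were called in 1 to 3 libraries.

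Junb, which encodes JunB, had 22 regions, 9 of them called in all 6 libraries, more than 96.5% of 21883 protein-coding genes had in a window of the same reach. By that measure Fosl1 exceeded 99.0% of genes, Fosb 98.0%, Fos and Batf 77.3%, Fosl2 67.0%, Batf3 55.2%, and Jun and Jund 40.7%. Most of the 22 regions at Junb lay in neighbouring genes, and 1 touched Junb. That region covered the start (chr8:84978081-84979033), with fold enrichments of 3.95, 3.72 and 2.81 in DMSO replicates 1, 2 and 3 and 3.08, 3.49 and 3.47 in tunicamycin replicates 1, 2 and 3. Its percentiles of 12.1, 8.84 and 0.240 in the DMSO libraries and 1.92, 8.40 and 5.86 in the tunicamycin libraries were low in every library and overlapped between the groups. The means were 7.06 ± 6.12 (SD, n = 3) and 5.40 ± 3.27 (SD, n = 3), a difference of −1.66 points (two-sided exact permutation test, p = 0.7, adjusted p = 0.988 over the 20810 regions called in all 6). Regions on either side of the gene, 1.26 kb before the start (chr8:84979578-84980278) and 2.06 kb after it (chr8:84976077-84976830), just past the gene's end, were also called in all 6 and stayed at percentiles of 1.10 to 10.8. The highest-ranked region of the locus (chr8:84965637-84966389) lay 12.6 kb beyond the start inside Rnaseh2a, a subunit of ribonuclease H2, at percentiles of 88.6 to 95.3. Inside Hook2, which encodes a microtubule linker protein, a region 19.3 kb before the start (chr8:84997635-84998512) was called in all 6 at a median percentile of 89.3. A region 29.1 kb before the start, inside Best2 (chr8:85007586-85007959), was called in DMSO replicates 1 and 2 and in no tunicamycin library, and a region 21.8 kb after it, inside Rnaseh2a (chr8:84956782-84957093), in tunicamycin replicates 1 and 2 and in no DMSO library.

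Jund, which encodes JunD, the JUN protein least tied to acute induction, had 4 regions, none inside or next to the gene. The nearest (chr8:70672957-70673911) lay 23.8 kb before it, at Lsm4, a subunit of the RNA-binding LSM ring, and ranked highest of all 140 regions. Its fold enrichments were 13.3, 13.8 and 13.3 in DMSO replicates 1, 2 and 3 and 13.5, 11.9 and 14.2 in tunicamycin replicates 1, 2 and 3, at percentiles of 95.7 to 99.6. On the other side the next region began 146 kb past the gene. The stretch of 173 kb between them held 11 protein-coding genes and no peak in any library. The authors' peak numbers ran on across it in all 6 lists. Of 2478 stretches at least as long without a region, 79 held 11 or more protein-coding genes. Why no peak was listed over Jund was not tested. A region within Pgpep1, a peptidase gene (chr8:70659378-70660740, 38.0 kb before the Jund start), had fold enrichments of 9.02, 7.62 and 7.17 in DMSO replicates 1, 2 and 3 and 8.15, 8.63 and 9.0 in tunicamycin replicates 1, 2 and 3. Its percentiles of 79.2, 77.4 and 77.3 in the DMSO libraries and 79.9, 82.1 and 84.1 in the tunicamycin libraries did not overlap between the groups, a difference of 4.09 points (two-sided exact permutation test, p = 0.10, adjusted p = 0.961 over the 20810 regions called in all 6). Within the common set of regions called in all 6 libraries, described below, the difference was 0.717 points and the groups overlapped.

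Fos, which encodes c-Fos, had 23 regions, 5 of them in all 6 libraries. All but 1 lay outside any protein-coding gene. The region over the start (chr12:85473422-85474333, 912 bp) had fold enrichments of 3.83, 4.21 and 4.43 in DMSO replicates 1, 2 and 3 and 4.20, 4.03 and 3.97 in tunicamycin replicates 1, 2 and 3. Its percentiles were 10.6, 20.6 and 28.9 in the DMSO libraries and 22.3, 18.4 and 14.4 in the tunicamycin libraries, and each tunicamycin value lay within the range of the DMSO values. The means were 20.1 ± 9.17 (SD, n = 3) and 18.4 ± 3.95 (SD, n = 3), a difference of −1.68 points (two-sided exact permutation test, p = 0.9, adjusted p = 0.998 over the 20810 regions called in all 6). Its summit lay between 63 bp before and 23 bp after the start.

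The other 4 regions at Fos called in all 6 libraries had higher median percentiles than the start region. The highest (chr12:85454875-85455909) was centred 18.5 kb before the start and had fold enrichments of 9.26, 9.20 and 10.2 in DMSO replicates 1, 2 and 3 and 9.29, 11.2 and 10.1 in tunicamycin replicates 1, 2 and 3, at percentiles of 80.8 to 95.0, with overlap between the groups. The region 26.7 kb before the start (chr12:85446844-85447603) showed the largest difference in whole-list percentile between the groups of the 51 AP-1 regions called in all 6 libraries. In the common set 2 Batf regions differed by more, in the other direction. Its fold enrichments were 5.99, 5.21 and 4.73 in DMSO replicates 1, 2 and 3 and 5.59, 8.28 and 7.89 in tunicamycin replicates 1, 2 and 3. Tunicamycin replicate 1 lay below DMSO replicate 1 in fold enrichment and just above it in percentile. The percentiles were 49.5, 45.0 and 37.4 in the DMSO libraries and 51.6, 79.8 and 76.5 in the tunicamycin libraries, which did not overlap, with means of 44.0 ± 6.10 (SD, n = 3) and 69.3 ± 15.4 (SD, n = 3), a difference of 25.3 points (two-sided exact permutation test, p = 0.10, adjusted p = 0.961 over the 20810 regions called in all 6). In the common set the ranks were 13.1, 21.3 and 24.2 for DMSO and 20.9, 50.8 and 50.7 for tunicamycin. There tunicamycin replicate 1 lay below DMSO replicates 2 and 3, and the mean difference was 21.2 points. Regions centred 5.05 kb before and 12.1 kb after the start were the other 2 constant ones, at median percentiles of 65.4 and 82.6. Just past the end of the gene, 3 regions centred 4.15, 4.96 and 5.54 kb from the start were called in 3, 5 and 1 libraries with median percentiles of 0.222, 0.137 and 0.194. A region 1.59 kb before the start, called in every library but tunicamycin replicate 1, stood at 1.88.

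**Figure D2:**
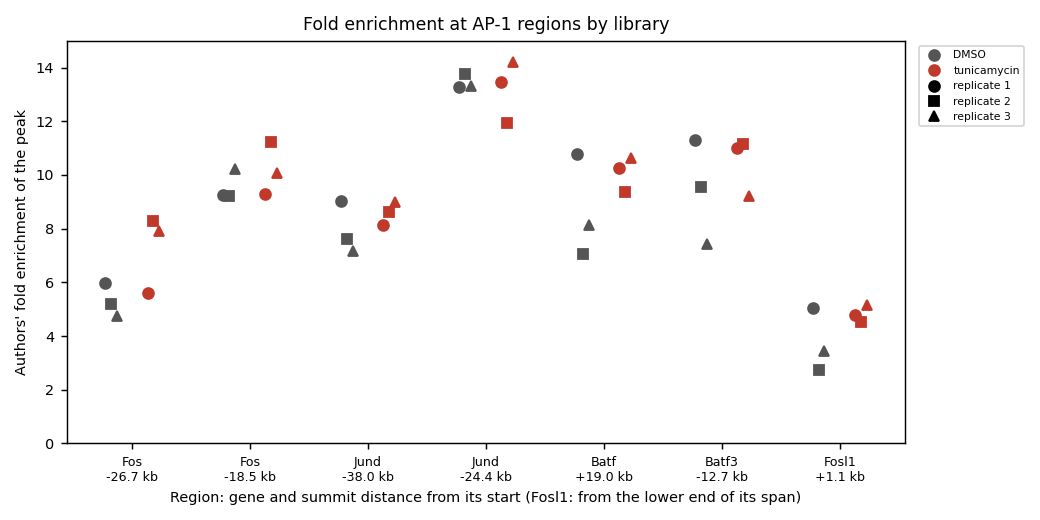
The authors' fold enrichment in each library (DMSO grey, tunicamycin red, symbols by replicate number) at 7 AP-1 regions called in all 6 libraries, named by gene and summit distance from its start. DMSO and tunicamycin values overlap at every region shown, and at the region 26.7 kb before Fos tunicamycin replicates 2 and 3 stand above the other 4 libraries.

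Fosb, which encodes FosB, had 23 regions and 10 in all 6 libraries. The region over its start (chr7:19309894-19310578) was missing from DMSO replicate 3, the shortest list. Its fold enrichments were 4.01 and 5.0 in DMSO replicates 1 and 2 and 4.78, 4.21 and 4.42 in the tunicamycin libraries, at percentiles of 13.0 to 39.7. A region inside the gene, 1.34 kb past the start (chr7:19308105-19308898), was called in all 6. Its percentiles were 3.46, 2.01 and 43.4 in the DMSO libraries and 5.39, 5.16 and 16.8 in the tunicamycin libraries, so that DMSO replicate 3 alone stood far above the rest. The highest-ranked region of the locus (chr7:19344867-19345592) lay 35.4 kb before the start at Ercc1, a DNA repair nuclease gene, at percentiles of 78.3 to 85.7.

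Fosl1, which encodes Fra-1, had 11 of 16 regions called in all 6 libraries, the most of the 9 genes. The promoter table does not hold Fosl1, so its direction is not used. The region across the lower-coordinate end of its span (chr19:5447428-5448122) had percentiles of 71.0, 64.7 and 40.9 in the DMSO libraries and 59.6, 69.2 and 47.1 in the tunicamycin libraries, with means of 58.9 ± 15.9 (SD, n = 3) and 58.7 ± 11.1 (SD, n = 3), a difference of −0.193 points (two-sided exact permutation test, p = 1, adjusted p = 1.0 over the 20810 regions called in all 6). The highest-ranked region of the locus (chr19:5424077-5425680) lay 22.7 kb from that end, across AI837181 and Drap1, the gene of a transcriptional corepressor, at percentiles of 70.8 to 82.2. A region inside the gene, 1.12 kb from that end (chr19:5448561-5448997) and singled out after its values were seen, had fold enrichments of 5.06, 2.74 and 3.44 in DMSO replicates 1, 2 and 3 and 4.77, 4.52 and 5.16 in tunicamycin replicates 1, 2 and 3. Its percentiles of 35.7, 0.230 and 4.88 in the DMSO libraries and 36.4, 31.2 and 41.2 in the tunicamycin libraries overlapped only through DMSO replicate 1, a difference of 22.6 points (two-sided exact permutation test, p = 0.2, adjusted p = 0.961 over the 20810 regions called in all 6).

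Fosl2, which encodes Fra-2, had 4 of 15 regions called in all 6 libraries. No region covered its start. The nearest (chr5:32134944-32136127) ended 345 bp before the gene and was called in every library, at percentiles of 54.8, 61.1 and 59.5 in the DMSO libraries and 56.7, 62.8 and 41.5 in the tunicamycin libraries, a difference of −4.78 points (two-sided exact permutation test, p = 0.7, adjusted p = 0.988 over the 20810 regions called in all 6). The highest-ranked region (chr5:32103904-32104858) lay 32.1 kb before the start, at percentiles of 74.8 to 92.1. Inside the gene 3 regions were found, called in 1, 3 and 1 libraries.

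Batf had 5 of 12 regions called in all 6 libraries, 2 of them in the gene. The region over its start (chr12:85686312-85687249) had fold enrichments of 9.87, 6.64 and 4.59 in DMSO replicates 1, 2 and 3 and 7.71, 6.81 and 5.94 in tunicamycin replicates 1, 2 and 3. Its percentiles of 84.4, 67.7 and 34.6 in the DMSO libraries and 76.6, 67.4 and 55.6 in the tunicamycin libraries overlapped between the groups, with means of 62.3 ± 25.4 (SD, n = 3) and 66.5 ± 10.5 (SD, n = 3), a difference of 4.27 points (two-sided exact permutation test, p = 0.9, adjusted p = 0.998 over the 20810 regions called in all 6). The highest-ranked region (chr12:85705034-85706039) lay inside the gene 19.0 kb past the start, with fold enrichments of 10.8, 7.06 and 8.14 in DMSO replicates 1, 2 and 3 and 10.2, 9.35 and 10.6 in tunicamycin replicates 1, 2 and 3. Its percentiles were 88.8, 72.1 and 85.0 in the DMSO libraries and 91.3, 86.1 and 92.1 in the tunicamycin libraries, a difference of 7.88 points (two-sided exact permutation test, p = 0.2, adjusted p = 0.961 over the 20810 regions called in all 6), and the groups overlapped. Regions 38.6 kb before (chr12:85647432-85648363) and 59.2 kb after the start (chr12:85745759-85746736, at Flvcr2) ranked lower in every tunicamycin library than in every DMSO library within the common set. Their mean differences there were −24.8 and −22.2 points, while by whole-list percentile the groups overlapped at each. Regions 12.6 kb before and 24.1 kb after the start were called in every library but DMSO replicate 3, at median percentiles of 71.4 and 65.3.

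Batf3 had 3 of 16 regions called in all 6 libraries. The region over its start (chr1:191098327-191098627) was called in DMSO replicate 1 and tunicamycin replicate 1 only, with fold enrichments of 3.59 and 4.15. The highest-ranked region (chr1:191085318-191086045) lay 12.7 kb before the start, with fold enrichments of 11.3, 9.55 and 7.44 in DMSO replicates 1, 2 and 3 and 11.0, 11.2 and 9.22 in tunicamycin replicates 1, 2 and 3, at percentiles of 79.7 to 94.1, and overlapped between the groups. A region 0.955 kb before the start (chr1:191097278-191097702) was called in every library but DMSO replicate 3, at a median percentile of 25.8. At 25.2 kb before the start, inside the kinetochore gene Nsl1 (chr1:191073042-191073520), the percentiles were 68.8, 30.3 and 21.6 in the DMSO libraries and 38.2, 76.9 and 64.8 in the tunicamycin libraries, a difference of 19.7 points (two-sided exact permutation test, p = 0.3, adjusted p = 0.961 over the 20810 regions called in all 6), and the groups overlapped.

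Set beside each other, the start regions ranged widely. Over the libraries that called them, the mean percentile was 64.4 ± 17.5 at Batf (SD, n = 6), 58.8 ± 12.2 at Fosl1 (n = 6), 27.7 ± 10.7 at Fosb (n = 5), 25.3 ± 8.95 at Jun (n = 6), 19.2 ± 6.38 at Fos (n = 6) and 6.23 ± 4.48 at Junb (n = 6). The ranges of Batf and Fosl1 overlapped, as did those of Fosb, Jun and Fos, and the genes did not fall into separate tiers. In DMSO replicate 3, Batf (34.6) and Fosl1 (40.9) stood below Jun (41.3). In DMSO replicate 1, Junb (12.1) stood above Fos (10.6). Within libraries, Fosb stood above Fos wherever both were called, and Jun stood above Fos in all but tunicamycin replicate 1. Differences between the genes were not tested. Among 8019 protein-coding genes whose start lay in a region called in all 6 libraries (45.8% of 17491 with a promoter entry), the median percentile was 85.1, and 1.5% ranked below Jun, 0.998% below Fos and 0.212% below Junb, against 20.2% below Batf. Where a gene had several promoter entries, the one called in most libraries, then of highest median percentile, stood for it. The AP-1 starts described above are those of the first entry. By the percentile of −log10 q, the Jun region stood at 80.6 to 87.7, the Fos region at 67.9 to 79.1 and the Junb region at 32.2 to 81.1, and 44.1%, 25.6% and 19.7% of the 8019 start regions ranked below them. These peaks were low by fold enrichment, yet at median percentiles of 85.1, 76.8 and 73.1 by −log10 q (Jun, Fos and Junb). The Jun start region was also wider than 91.4% of the start regions, while those of Junb, Fos and Batf were near the median width of 982 bp.

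**Figure D3:**
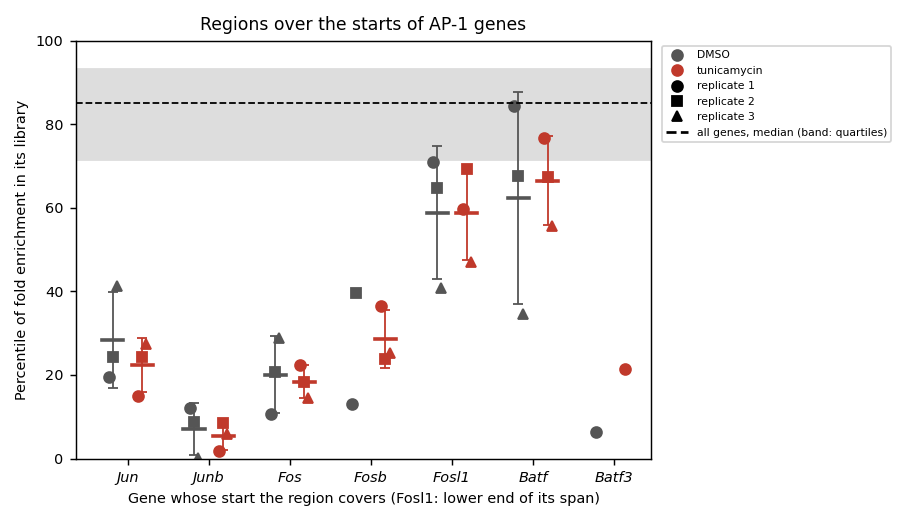
Percentile of fold enrichment in each library for the regions over the starts of 7 AP-1 genes (for Fosl1, over the lower end of its span). Bars are means and SDs of groups with 3 calls, and the dashed line and band give the median and quartiles over 8019 gene starts called in all 6 libraries. All genes shown but Batf lie below the band in every library that called them, and DMSO and tunicamycin overlap at each gene with 3 calls in both groups.

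No AP-1 region was called in every library of one treatment and in none of the other. The comparison of tunicamycin with DMSO bears on whether ER stress changes accessibility at these loci. Of the 140 regions, 51 were called in all 6 libraries (36.4%), against 25.1% of all regions, and 28 in a single library (20.0%), against 32.4%. None was called in 3 of 3 tunicamycin and 0 of 3 DMSO libraries, where the share of all regions was 0.683%, and none showed the reverse, where it was 0.0976%; a count of 0 among 140 is near those shares. Of the 140 regions, 14 lay in an AP-1 gene, 46 in another protein-coding gene and 80 in none. Those called in all 6 libraries had a median width of 754 bp and a median percentile of 58.2, where all 20810 such regions had 775 bp and 74.7. Calls in 2 libraries of one treatment and none of the other were seen after tunicamycin at 3 regions (those at Rnaseh2a near Junb, Efemp2 near Fosl1 and Tatdn3 near Batf3), where the share of all regions was 2.68%, and after DMSO at 1 (Best2 near Junb), where it was 1.44%. The commonest absence was from DMSO replicate 3 alone, at 16 regions (11.4%, against 8.27% of all). They included the Fosb start, and 4 of the 16 lay at Fosb.

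Of the 112 AP-1 regions called in at least 2 libraries, each library called a share of them. These were 91.1, 75.9 and 56.2% in DMSO replicates 1, 2 and 3 and 74.1, 92.0 and 85.7% in tunicamycin replicates 1, 2 and 3. The tunicamycin shares lay within the range of the DMSO shares except for replicate 2, which stood just above it. The means were 83.9% ± 9.06 after tunicamycin and 74.4% ± 17.5 after DMSO (SD, n = 3 each), a difference of 9.52 points that is smaller than the DMSO spread. Over all 56122 such regions the difference was 13.0 points. Without DMSO replicate 3 it was 0.150 points at the AP-1 loci, without DMSO replicate 1 17.2, without tunicamycin replicate 1 15.4 and without tunicamycin replicate 2 6.09. With all lists limited to the 28501 peaks of highest −log10 q it was −2.70 points, against 4.30 over all regions.

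**Figure D4:**
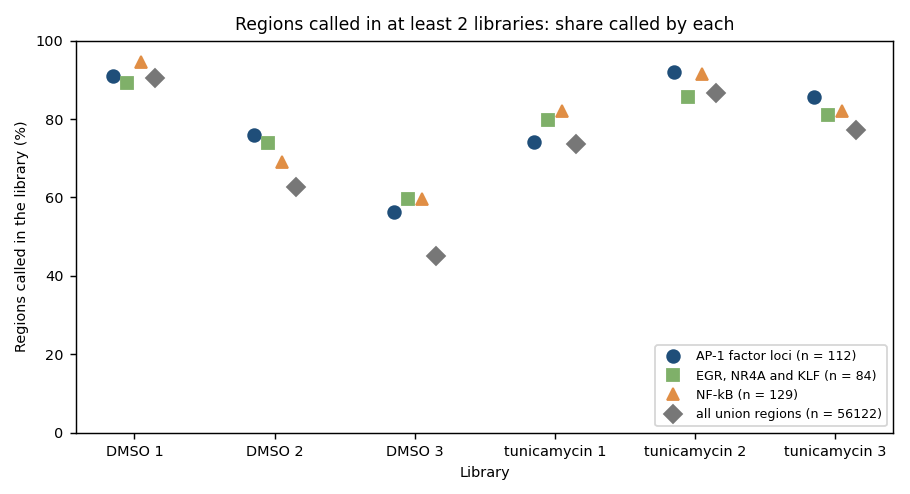
Percent of regions called by each library, among regions called in at least 2 libraries, for the AP-1 loci, the EGR, NR4A and KLF loci, the NF-kB loci and all regions (n in the legend). DMSO replicate 3, the shortest list, is lowest in every series, and the AP-1 loci span 56.2 to 92.0%.

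Among the 51 regions called in all 6 libraries, the percentile was higher in every tunicamycin than in every DMSO library at 2 (those at Fos and Pgpep1 above) and lower at 0, where all 20810 such regions gave 7.42% and 1.59%. With 3 libraries against 3 the smallest p possible is 0.10, no adjusted p of the 51 was below 0.961 over the 20810 regions, and 0 of the 51 had an unadjusted p below 0.05. Mean percentiles were higher after tunicamycin at 28 and lower at 23, with differences from −12.7 to 25.3 points and a median of 0.309, beside a median of 3.61 over all 20810. Percentiles depend on how many weak peaks a list holds, so ranks were also taken within the 20810 regions alone, a set of one size in every library. On that scale the difference was below 0 at 37 of the 51 AP-1 regions (72.5%), against 51.6% of all 20810, with medians of −2.40 and −0.304 points. In lists of one length it was below 0 at 35 of 46 (76.1%), against 51.1% of all. By −log10 q in the whole lists it was below 0 at 13 of 51 (25.5%), against 20.7%. By whole-list percentile of fold enrichment it was below 0 at 23 of 51 (45.1%), against 27.5%. Without DMSO replicate 3 that order turned round, with 27 of 67 (40.3%), against 45.1% of all. With any other library left out the AP-1 share stayed above that of all regions. Common-set ranks were not taken with a library left out. From whole-list percentile to common-set rank 14 of the 51 turned from higher to lower after tunicamycin, and 37 kept their direction. In the common set 0 AP-1 regions were higher and 2 lower without overlap (the Batf regions above), against 4.66 and 4.55% of all.

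**Figure D5:**
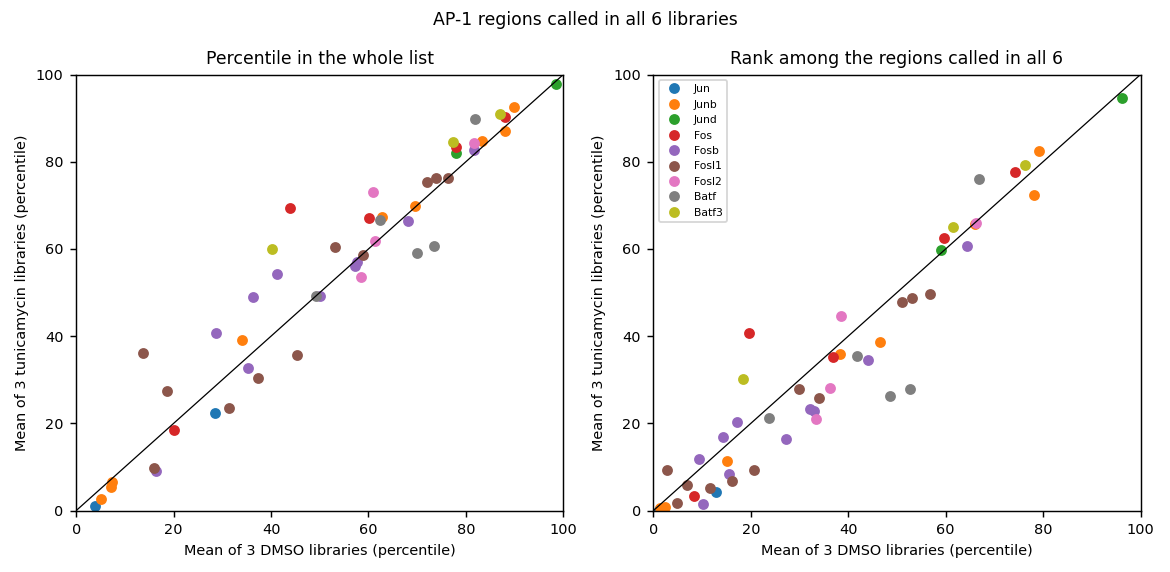
Mean of the 3 DMSO libraries (x axis) against the mean of the 3 tunicamycin libraries (y axis) for the 51 AP-1 regions called in all 6 libraries, coloured by gene, as percentile of fold enrichment in the whole list (left) and as rank among the 20810 regions called in all 6 (right). The line marks equal means: 28 points lie above it on the left and 14 on the right, and the red point farthest above it in the right panel is the region 26.7 kb before Fos.

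Regulators and partners of AP-1 had open chromatin in both groups. Of 34 such genes (kinases of the MAPK pathway, serum response factor and its ETS partners, ATF, MAF, NFE2 and BACH proteins, IRF4, IRF8, the phosphatase gene Dusp1 and the ubiquitin ligase gene Fbxw7), 32 held a region called in all 6 libraries in the gene or within 1 kb, against 54.4% of 21883 protein-coding genes, and Mapk10 and Batf2 did not. Of the 9 AP-1 genes 7 did, Jund and Batf3 being the exceptions. Within 50 kb of the 34 genes lay 445 regions. The single tunicamycin-only region lay 30.0 kb from Srf (chr17:46588278-46588573), and 4 were DMSO-only, 2 of them inside Mapk10, 1 inside Bach2 and 1 at 39.8 kb from Elk4. These are 0.225% and 0.899% of the 445, beside 0.683% and 0.0976% of all regions, and the differences between these shares were not tested. Of 138 called in all 6 libraries, 6 ranked higher and 3 lower after tunicamycin without overlap, beside the 7.42% and 1.59% of all regions. These included a region 17.8 kb from Atf3, a stress-induced partner of JUN proteins (chr1:191201163-191201600), with percentiles of 73.9, 19.2 and 50.2 in the DMSO and 83.8, 81.7 and 79.3 in the tunicamycin libraries, higher without overlap in the common set as well. Another lay inside Irf4 (chr13:30760642-30761702), with 12.4, 19.4 and 20.4 against 44.5, 62.3 and 53.5. The smallest p possible for each was 0.10.

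Other early response genes (the EGR, NR4A and KLF families) and the NF-kB regulators of inflammation served as comparison. The loci of 11 EGR, NR4A and KLF genes held 118 regions, 41 of them in all 6 libraries (34.7%), with 2 tunicamycin-only and 0 DMSO-only regions. Those of 11 NF-kB genes held 172, 67 of them in all 6 (39.0%), with 0 of either kind. Over all regions 25.1% were called in all 6 libraries, 0.683% were tunicamycin-only and 0.0976% DMSO-only. The difference in the share called per library was 7.94 points for the EGR, NR4A and KLF loci and 10.9 for the NF-kB loci, beside 9.52 for AP-1. The median difference in the common set was −5.27, −3.84 and −2.40 points in that order. None of these differences between families was tested.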

How the data were processed

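The authors deposited 1 peak list per library. Besides position and summit, each deposited peak carries its −log10 q-value and −log10 p-value, the fold over background at the summit (a ratio), and a score that was not used. Per the submitters' processing notes, the tools were MACS2, featureCounts, Picard, Bowtie2 2.2.9 and Trim Galore 0.4.4, with mm10. Settings, and any shift of read ends for the transposase, were not given in the sources used here. The largest deposited q-value in each list was 0.0482 to 0.05, and the 109 to 138 peaks a library had outside chromosomes 1 to 19, X and Y were dropped. A region's value in a library is the highest among its peaks there, taken separately for fold enrichment and −log10 q. Its summit is that of the peak of highest fold enrichment. Gene spans and promoters are RefSeq's for GRCm38.p6; exons were not distinguished.

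Differences of mean percentile were tested by two-sided exact permutation over the 20 splits of 6 libraries, with Benjamini-Hochberg adjustment over 20810 regions; the merge and the count of non-overlapping groups were tested on simulated data. Named were all 9 genes, their start region and region of highest median percentile, and every region called in all 3 libraries of one group and none of the other or without overlap between groups; other regions were singled out after their values were seen. 1 HSC marker gene is not reported here. The members and lists were chosen with earlier results of these data known. Alternatives were peaks with q at most 1e-05, lists of 28501 peaks, calls covering 50% of a region, windows of 250 bp about summits, a 10 kb reach, common-set ranks, −log10 q, same-numbered pairs and each library left out. Python 3.11.15, NumPy 2.4.6, pandas 2.3.3 and matplotlib 3.10.9 were used.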

Additional observations from a re-analysis of the deposited data

How the results depend on the processing

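The 51 AP-1 regions called in all libraries became 31 when peaks had to cover 50% of a region and 20 within 10 kb. Under 50% cover the share of all regions called in all 6 libraries also fell, from 25.1% to 14.7%. Tunicamycin-only regions numbered 1 under 50% cover, 0 to 3 with 1 library left out, and 0 under the other alternatives, and DMSO-only regions 0 to 1 with 1 library left out and 0 otherwise. Leaving out a library eases these criteria, and the shares of all regions meeting them under the alternatives are not given here. The count of regions ranked higher in every tunicamycin library, 2, became 0 in lists of one length, 0 in the common set, 0 within 10 kb, and 3 to 9 whichever of the 6 libraries was left out (9 without DMSO replicate 1, against 30.6% of all such regions). The share of all such regions was 4.38% in lists of one length and 4.66% in the common set. With 1 library left out it ran from 9.54 to 30.6%. The count ranked lower, 0, became 1 in lists of one length, 2 in the common set, and 2 to 4 with 1 library left out. The shares of all such regions were 3.91%, 4.55% and 2.93 to 7.45%, in that order. The difference of 9.52 points in the share called reversed to −2.70 in lists of one length and ran from 0.150 to 17.2 with 1 library left out. Of 135 values at 15 named regions under alternatives, 126 moved by less than 1 SD and 29 changed sign. That SD is the region's own, pooled over the groups, and it was often larger than the difference itself. A move below it is therefore no measure of stability. At the Batf start, 4.27 points became −11.2 in lists of one length, a move of less than 1 SD. As a replicate block, same-numbered pairs all moved up at 7 of the 51 regions (17.6% of all 20810) and down at 5 (4.65%), and the difference in the share called was 9.52 points. Deviations of same-numbered libraries correlated at −0.0831, −0.019 and 0.0305 over the 20810 regions, and those of differently numbered libraries at −0.0849 to 0.113. These values show no sign of pairing by number, but cannot tell whether same-numbered libraries were prepared together. The cause of these changes was not tested. Read depth is unknown, so calls limit what can be seen.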

Other observations

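Batf had the own-gene region of highest median percentile among the AP-1 genes. Of 11907 other protein-coding genes with a region called in all 6 libraries in the gene or within 1 kb, the 3 whose highest such region had the nearest set of 6 percentiles were Rbm4b, Pigt and Eif4e1b, at Euclidean distances of 5.16, 5.61 and 5.77 percentile points.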
